A study of Mus musculus with 6 samples.

Results

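The immediate early response genes considered here are Fos, Fosb, Jun, Junb, Egr1, Egr3, Atf3, Ier2, Nr4a1 and Klf6. They were selected by gene symbol, and all 10 were found among the 18482 genes of the deposited count table. The tissue was ear skin from 21-day-old mice (postnatal day 21). The 3 lecko libraries came from tamoxifen-treated mice in which Kdr, the gene of the receptor VEGFR2, was deleted in the lymphatic endothelium, and the 3 control libraries came from tamoxifen-treated littermates. Neither the Cre driver of the deletion nor the tamoxifen schedule of these mice is given in the sources used here. The labels do not tie a library to an animal, so that p-values measure only the spread between these samples. The ear tissue was frozen in liquid nitrogen after collection, and polyadenylated RNA was sequenced.

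Immediate early genes are transcribed within minutes of a stimulus, without new protein synthesis, through transcription factors that are already present in the cell, such as SRF with its ELK partners and CREB. Growth factors, stretch, injury and handling of tissue are known to induce them, in skin as in other organs, and most of their transcripts are short-lived. Most encode transcription factors themselves. Fos and Jun proteins pair to form AP-1, EGR proteins are zinc finger factors, and a later wave of genes, including MAP kinase phosphatases and mRNA decay factors, shuts the response down.

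Total estimated counts were 17242921 to 17825135 per library, and Kdr, the targeted gene, gave 173, 198 and 180 reads in lecko 1 to 3 and 566, 545 and 674 reads in controls 1 to 3. Counts of 4 Y-linked genes were 4, 21 and 9 in the lecko libraries and 18, 4272 and 4564 in controls 1 to 3. Sex thus also differed between the groups, with control 1 near the level of the lecko libraries, and genotype and sex are partly confounded. A fit with sex as a covariate therefore compares the lecko libraries in effect with control 1 alone. Skin was represented by all 6 keratinocyte and all 5 fibroblast markers in every library. Whole ear skin mixes many cell types, so fewer cells of a type and less RNA per cell cannot be told apart. In the lecko libraries the summed level of 6 lymphatic endothelial markers was 246 to 278 CPM and that of 5 leukocyte markers 223 to 298 CPM, against 292 to 339 CPM and 157 to 224 CPM in the controls. Markers of blood endothelium, at 223 to 243 CPM, and of skeletal muscle, at 2980 to 3891 CPM, were also below the controls, at 266 to 286 CPM and 4041 to 4479 CPM. The part of these marker differences in the comparison of the groups was not tested. CPM is a count scaled to the size of its library, so that levels can be compared between libraries.

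The upstream sequences of 5 of the genes are shown. Of these, 4, namely Fosb, Atf3, Nr4a1 and Fos, had the widest range between libraries among the members with an entry in the promoter table. Junb varied little outside 1 library, as did Klf6, whose sequence is not shown. Each run holds the 250 bases before a transcription start, 5′ to 3′ on the strand of the gene, from RefSeq in GRCm38.p6. The positions are chr7:19310046-19310295 on the minus strand for Fosb, chr1:191183334-191183583 on the minus strand for Atf3, chr15:101266596-101266845 on the plus strand for Nr4a1, chr12:85473640-85473889 on the plus strand for Fos and chr8:84978749-84978998 on the minus strand for Junb. The Nr4a1 and Fosb starts lie inside the span that RefSeq gives each gene. Capitals mark TGACG, or CGTCA where it is read from the other strand, the core of the cAMP response element (CRE) bound by CREB and ATF proteins.
Fosb: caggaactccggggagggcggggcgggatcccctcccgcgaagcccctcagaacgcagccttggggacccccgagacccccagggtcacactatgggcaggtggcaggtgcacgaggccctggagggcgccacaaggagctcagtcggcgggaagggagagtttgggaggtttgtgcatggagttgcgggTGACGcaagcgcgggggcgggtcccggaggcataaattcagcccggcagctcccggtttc
Atf3: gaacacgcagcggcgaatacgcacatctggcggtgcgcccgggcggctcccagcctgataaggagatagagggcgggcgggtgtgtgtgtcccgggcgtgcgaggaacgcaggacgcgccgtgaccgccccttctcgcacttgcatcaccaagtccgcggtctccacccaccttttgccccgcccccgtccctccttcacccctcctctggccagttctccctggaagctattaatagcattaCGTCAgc
Nr4a1: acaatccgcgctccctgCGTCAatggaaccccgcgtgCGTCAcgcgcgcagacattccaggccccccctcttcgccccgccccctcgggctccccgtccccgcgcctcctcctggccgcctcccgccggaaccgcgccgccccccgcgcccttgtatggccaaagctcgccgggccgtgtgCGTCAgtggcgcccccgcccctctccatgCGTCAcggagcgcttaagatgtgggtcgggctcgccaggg
Fos: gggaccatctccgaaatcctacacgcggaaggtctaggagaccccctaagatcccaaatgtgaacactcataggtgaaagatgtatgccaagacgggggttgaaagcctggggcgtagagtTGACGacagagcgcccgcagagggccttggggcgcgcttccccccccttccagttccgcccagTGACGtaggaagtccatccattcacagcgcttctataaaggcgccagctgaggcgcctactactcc
Junb: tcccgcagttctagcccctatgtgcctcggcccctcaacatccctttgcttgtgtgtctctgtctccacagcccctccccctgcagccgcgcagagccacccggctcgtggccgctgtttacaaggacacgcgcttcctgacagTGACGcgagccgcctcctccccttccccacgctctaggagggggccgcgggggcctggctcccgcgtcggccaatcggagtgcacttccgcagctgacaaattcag

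Of the 10 members, 7 matched an entry of the promoter table (Fos, Fosb, Jun, Junb, Atf3, Nr4a1 and Klf6). The core TGACG, searched on both strands, was present in 5 of these 7 upstream windows, against 17.8% of 32841 upstream windows of the same length. Those 5 are the sequences shown, and the windows of Jun and Klf6, not shown, lacked it. The core occurred at 4 positions in Nr4a1, at 2 in Fos, with first bases 129 and 66 bases before the start, and at 1 each in Fosb, Junb and Atf3. An EGR site, GCGNGGGCG, was found in Fosb and Nr4a1, against 4.70% of all windows, and did not overlap the CRE core there. The full CRE TGACGTCA, which contains the core (1.55% of windows), the AP-1 site TGANTCA (6.75%) and the CArG box bound by SRF (1.47%) were in none of the 7 windows. These matches are letters in a window and show nothing about binding in these samples. Bases further upstream were not searched, and Egr1, Egr3 and Ier2 had no window.

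The highest levels of the immediate early genes came from a single library. In lecko 2, all 10 members reached their highest level of the 6 libraries, whereas lecko 2 was the highest library for 16.4% of the 14856 genes tested. The level in lecko 2 was at least 1.5 times that of the next highest library for 7 of the 10 members, against 0.316% of all genes, and at least 2 times for 5 of them, against 0.0875%. Those 5, Fosb, Atf3, Nr4a1, Egr1 and Fos, were among 13 genes in all that passed the second fold. Over the members, the ratio of lecko 2 to the highest other library had a median of 2.00, against 0.908 over all genes tested. The other libraries of the lecko group lay mostly among the controls: lecko 1 exceeded all controls for 0 members and lecko 3 for 2, Jun and Egr1.

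**Figure D1:**
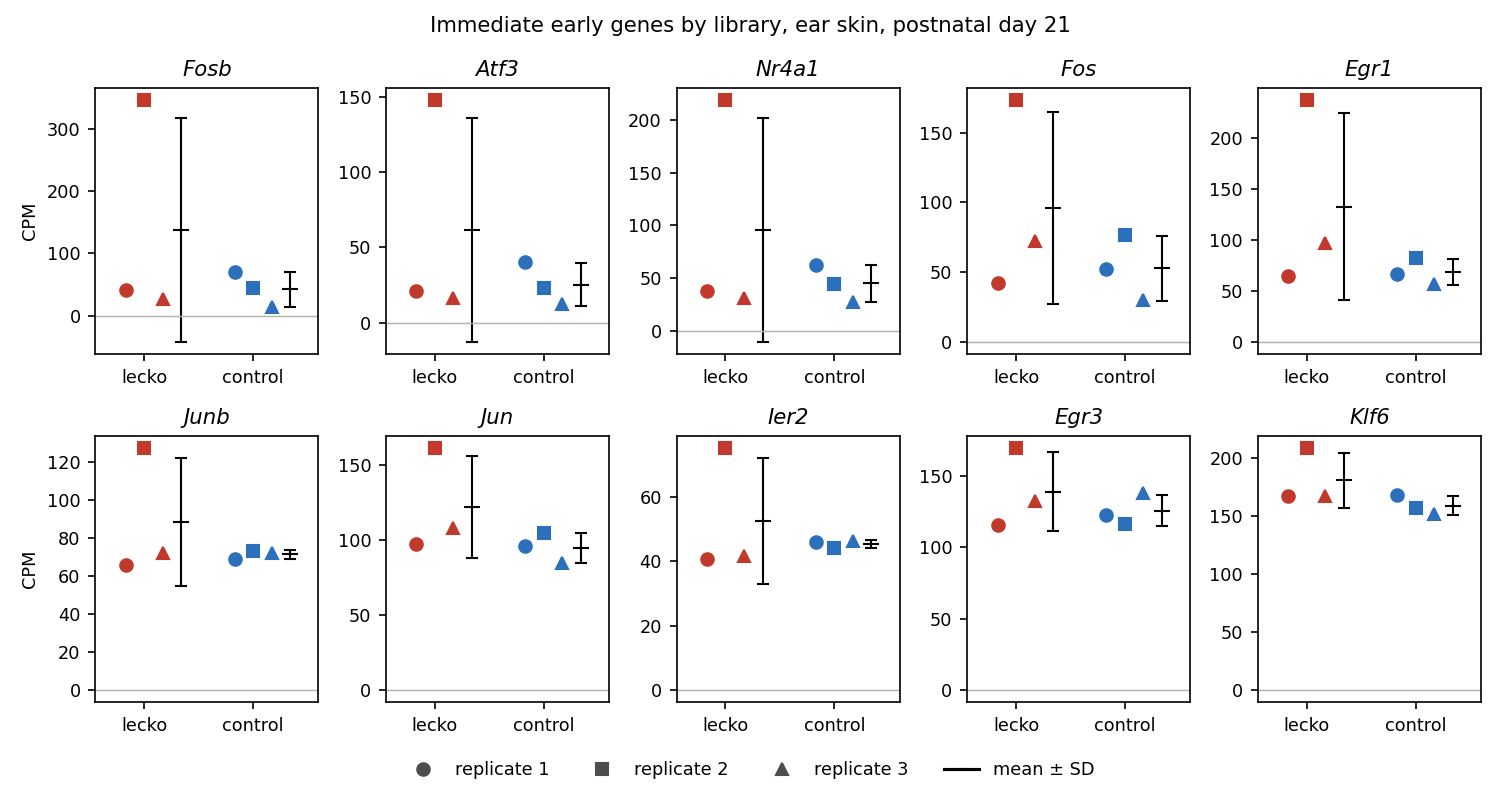
Level of each of the 10 immediate early genes in CPM (linear axes, 0 marked by a grey line) in 3 lecko (red) and 3 control (blue) libraries, with marker shape for the replicate number and the mean ± SD beside each group. The red square, lecko 2, is the highest point in all 10 panels, and in the upper row its level is at least 2.26 times that of every other library.

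Fos-family genes encode the AP-1 partners of Jun proteins. Gene positions are given as RefSeq has them in GRCm38.p6. Fosb (gene ID 14282, chr7:19302696-19310118), which gives rise to the full-length factor and the long-lived splice form deltaFosB, was at 41.0, 346 and 26.7 CPM in lecko 1 to 3, against 69.5, 43.8 and 13.4 CPM in controls 1 to 3. It was 4.97 times as high in lecko 2 as in control 1, the next library, and it had the widest range of all members, 25.9-fold over the 6 libraries. The controls alone differed 5.20-fold, and the groups overlapped. Fos (14281, chr12:85473890-85477274), the founding member of the family, was at 42.2, 173 and 72.1 CPM in the lecko libraries, against 52.2, 76.6 and 30.1 CPM in the controls. Lecko 2 was 2.26 times as high as control 2, while lecko 1 and lecko 3 lay within the range of the controls.

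Jun and Junb encode the partners that bring Fos proteins to DNA, Junb often acting as the milder activator. Jun (16476, chr4:95049036-95052222) was at 97.6, 161 and 108 CPM in the lecko libraries and at 95.9, 104 and 84.5 CPM in the controls. Junb (16477, chr8:84976909-84978748) was at 65.9, 127 and 72.1 CPM in the lecko libraries and at 68.6, 73.0 and 72.1 CPM in the controls. Lecko 2 stood less far above the next library than for the Fos-family genes, at 1.49 times for Jun and 1.74 times for Junb. Outside lecko 2, Junb varied 1.11-fold over the 5 libraries, against 5.20-fold for Fosb. Atf3 (11910, chr1:191170296-191183333), a bZIP factor induced by stress that can pair with Jun proteins, was at 21.0, 148 and 16.2 CPM in the lecko libraries and at 40.4, 23.2 and 12.2 CPM in the controls. It thus resembled Fosb, with lecko 2 at 3.65 times control 1 and the other lecko libraries inside the range of the controls.

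Of the EGR genes, which encode zinc finger factors that bind GC-rich sites, Egr1 varied and Egr3 did so far less. Egr1 (13653, chr18:34861207-34864956) was at 64.6, 236 and 96.6 CPM in the lecko libraries and at 66.8, 82.6 and 57.1 CPM in the controls. Egr3 (13655, chr14:70077317-70082613) was at 115, 169 and 132 CPM in the lecko libraries and at 123, 116 and 138 CPM in the controls. Lecko 2 stood 2.45 times above the next library for Egr1 and 1.23 times for Egr3, whose value in lecko 1 was the lowest of the 6.

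Nr4a1 (15370, chr15:101253902-101274795), an orphan nuclear receptor whose activity depends largely on how much of it is made, was at 37.8, 219 and 30.7 CPM in the lecko libraries and at 62.7, 44.4 and 27.5 CPM in the controls, so that lecko 2 was 3.49 times control 1. Klf6 (23849, chr13:5861489-5870393), a zinc finger factor induced on injury, was at 167, 208 and 167 CPM in the lecko libraries and at 168, 157 and 152 CPM in the controls. Ier2 (15936, chr8:84661331-84662852), a nuclear protein of the immediate early wave, was at 40.7, 75.2 and 41.8 CPM in the lecko libraries and at 46.0, 44.0 and 46.2 CPM in the controls. For Klf6, the member with the smallest range, the highest library was 1.37 times the lowest. For Ier2, lecko 1 and lecko 3 were below every control and lecko 2 above every control.

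**Figure D2:**
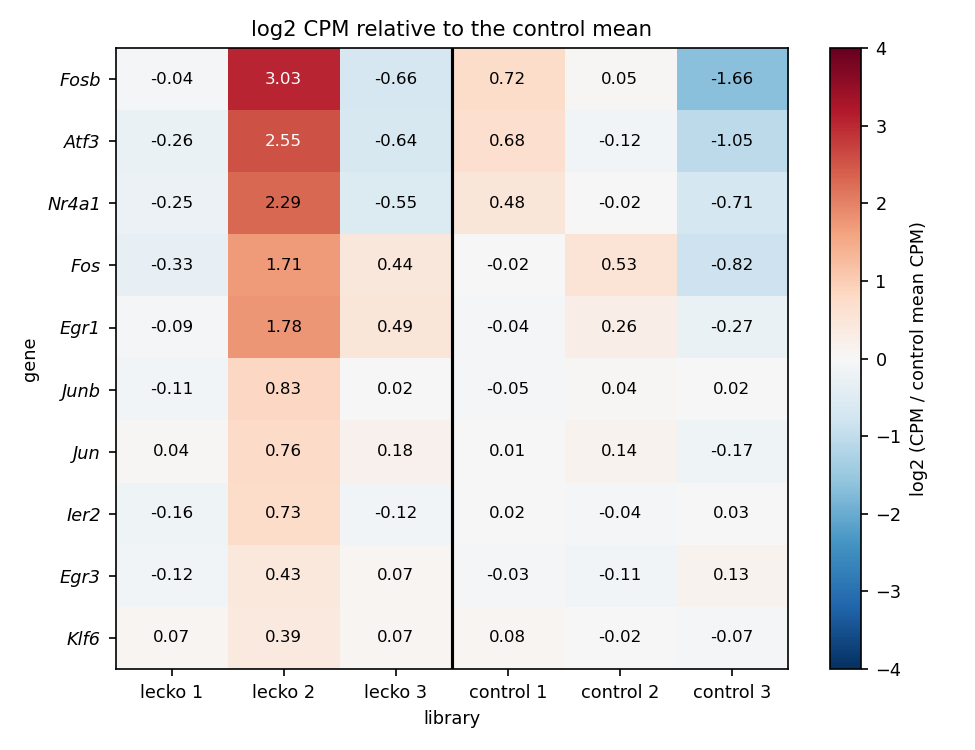
Level of each gene in each library as log2 of its CPM over the mean CPM of the 3 controls, with genes ordered by their range over the 6 libraries and the lecko libraries left of the black line. The lecko 2 column is red in all 10 rows, and control 3 is the bluest column for Fosb, Atf3, Nr4a1 and Fos, where it is the lowest of the 6 libraries.

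When lecko 2 was set aside, the wide-ranging members split by the order of the remaining 5 libraries. Fosb, Atf3 and Nr4a1 shared a single order from high to low: control 1, control 2, lecko 1, lecko 3 and control 3. In each of these genes the 95% counting intervals of control 2 and lecko 1 overlapped, as did those of lecko 3 and control 3 for Nr4a1. The share of all genes with this order is not given here. Fos and Egr1 did not follow this order, since lecko 3 and control 2 were their highest libraries of the 5 and control 1 lay below both. Control 3 was the lowest of the 6 libraries for 7 members, the exceptions being Junb, Egr3 and Ier2. The share of all genes lowest in control 3 is not given here, while 19.9% of all genes tested were highest in it. Because these orders cross, the ratio of Fosb to Fos within a library, each per kilobase of exon, was 0.542, 1.11 and 0.206 in lecko 1 to 3 and 0.743, 0.318 and 0.247 in controls 1 to 3. This ratio was higher in lecko 2 and control 1 than in the other 4 libraries, and it does not depend on how libraries are scaled.

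Per kilobase of exon, the most abundant members in control skin were Junb, at 39.4 ± 1.3 CPM per kb, and Klf6, at 37.6 ± 2.01 CPM per kb (SD, n = 3). Egr3, Ier2 and Jun followed at 30.6 ± 2.69, 29.9 ± 0.795 and 29.8 ± 3.13 CPM per kb. Fos was at 25.1 ± 11.0, Nr4a1 at 16.8 ± 6.57 and Egr1 at 15.3 ± 2.87 CPM per kb. The lowest were Atf3 at 11.7 ± 6.59 and Fosb at 11.2 ± 7.44 CPM per kb. Each neighbour in this order overlapped the next over the 3 controls, except that Klf6 lay above Egr3 in all. In lecko 2 the order was another, with Fosb the highest at 91.4 CPM per kb, then Fos at 82.1, Nr4a1 at 81.7 and Junb at 70.2. The length used was the union of all annotated exons of a gene, so these orders depend on exons that the expressed transcripts may lack.

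The spread between libraries of the same group was large for these genes. The within-group standard deviation (SD) of log2 CPM, pooled over both groups, had a median of 0.53 over the members and 0.12 over all genes tested. It was 1.64 for Fosb, 1.37 for Atf3, 1.18 for Nr4a1, 0.87 for Fos and 0.70 for Egr1, all within the top 5% of genes tested, and 9 of the 10 members were in the top 5% when compared with genes of similar mean level. The lowest member count, 214 reads of Atf3 in control 3, has an exact Poisson 95% interval of 186 to 245, which covers counting error only. Without lecko 2 the members divided by their rank among all genes tested, which was not matched for mean level. Fosb (SD 1.03), Atf3 (0.72), Fos (0.64) and Nr4a1 (0.50) remained in the top 5% of all genes. Egr1 (0.32) was then at percentile 90.2. Junb (0.07), Klf6 (0.06) and Ier2 (0.04) were then at percentiles of 22.6, 20.1 and 5.14 of all genes. With all 6 libraries these 3 genes were at percentiles of 92.2, 59.7 and 91.6 of all genes. These are descriptions of the 6 libraries, with no test, and the part played by tissue handling was not tested.

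**Figure D3:**
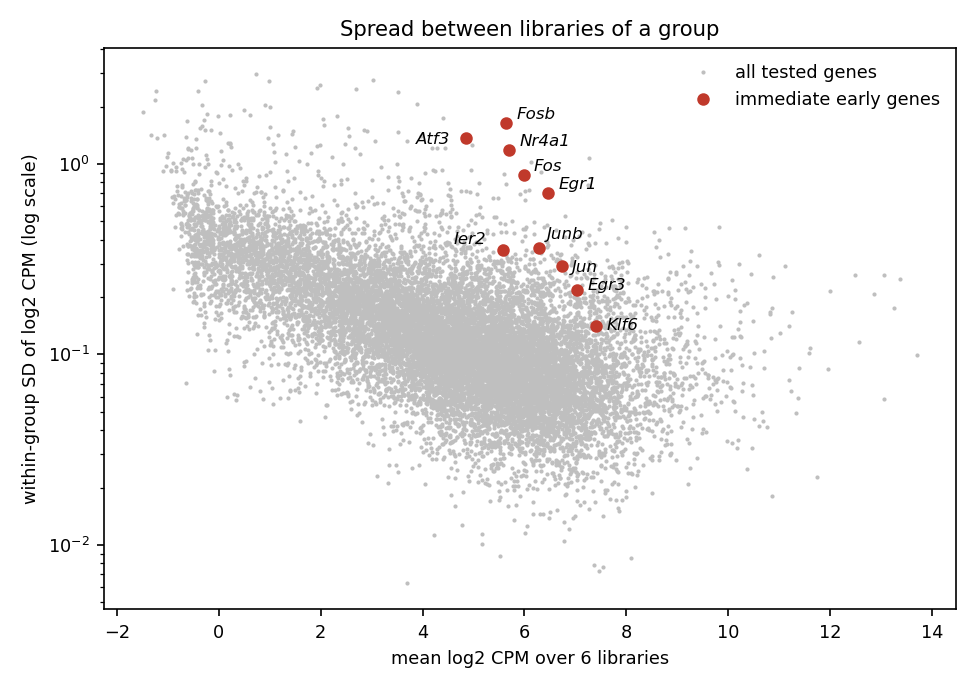
Within-group SD of log2 CPM (log axis) against mean log2 CPM for all 14856 tested genes (grey) and the 10 immediate early genes (red). The members lie in the upper part of the cloud at their level, from 0.14 for Klf6 to 1.64 for Fosb.

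The comparison of lecko with control skin asks whether deletion of VEGFR2 in lymphatic vessels altered these genes, which was tested with the quasi-likelihood model of edgeR over 14856 genes and p adjusted by Benjamini and Hochberg's method. Of the 10 members, 0 passed the threshold of 0.05, against 0.0202% of all genes in either direction and 0.0135% higher in lecko. By the unadjusted p of edgeR 0 members were under 0.05, against 8.56% of all genes in either direction and 4.89% higher in lecko. DESeq2 also called 0 members, against 0.215% of all genes, with 1 member, Jun, under 0.05 unadjusted (adjusted p = 0.63). By limma-voom 0 members were called, against 2 genes higher and 1 lower over all genes, and 0 were under 0.05 unadjusted. The unadjusted shares of all genes by DESeq2 and limma-voom are not given here, so these unadjusted counts have no rate beside them. With sex as a covariate, which leaves control 1 as the only control compared, the median log2 fold change of the members by edgeR was 0.49. All 10 log2 fold changes were positive, as were those of 51.9% of all genes, and their median was 0.61, against 0.01 over all genes. The groups overlapped for all 10 members, while they did not overlap for 14.6% of genes tested.

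Fosb averaged 138 ± 180 CPM in lecko skin and 42.2 ± 28.1 CPM in control skin (SD, n = 3 each). Its log2 fold change was 1.71 (SE 1.31, adjusted p = 0.77 by edgeR). The same quantity was 1.29 (SE 1.12, adjusted p = 0.79) for Atf3 and 1.09 (SE 0.97, adjusted p = 0.79) for Nr4a1. It was 0.95 (SE 0.56, adjusted p = 0.70) for Egr1 and 0.86 (SE 0.68, adjusted p = 0.78) for Fos. With sex as a covariate, in effect against control 1 alone, the log2 fold change by edgeR was 0.99 for Fosb, 0.61 for Atf3 and 0.61 for Nr4a1. By limma-voom it was 1.07 for Fosb, 0.71 for Atf3 and 0.58 for Nr4a1. In each of these 5 genes lecko 2 lay above all other libraries, while lecko 1 and lecko 3 did not both exceed the controls. Jun (0.36, SE 0.20), Junb (0.31, SE 0.27), Ier2 (0.21, SE 0.26), Klf6 (0.19, SE 0.09) and Egr3 (0.14, SE 0.14) differed less, and Klf6 had the smallest adjusted p of the members, 0.61 by edgeR. With sex as a covariate, again against control 1 alone, the log2 fold change of Klf6 was 0.10.

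Lecko 2 was the highest library for all 10 members, so leaving it out had to lower their log2 fold changes. With any other single library left out, their median was 0.45 to 0.85. Without lecko 2, 4 members had a positive log2 fold change and 6 a negative one. The median was then -0.03, against 0.00 over all genes, and 0 members passed edgeR's test, against 0.0400% of genes. The unadjusted count under 0.05 was also 0, against 1349 of 14991 genes (9.0%). Without lecko 2 the log2 fold change was -0.44 (SE 0.57) for Atf3, -0.39 (SE 0.38) for Nr4a1 and -0.32 (SE 0.81) for Fosb. It was 0.23 for Egr1, 0.11 each for Fos and Jun and 0.07 for Klf6. For Ier2, whose remaining lecko libraries, at 40.7 and 41.8 CPM, lay below the 3 controls, it was -0.14 (SE 0.07, adjusted p = 0.60 by edgeR).

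**Figure D4:**
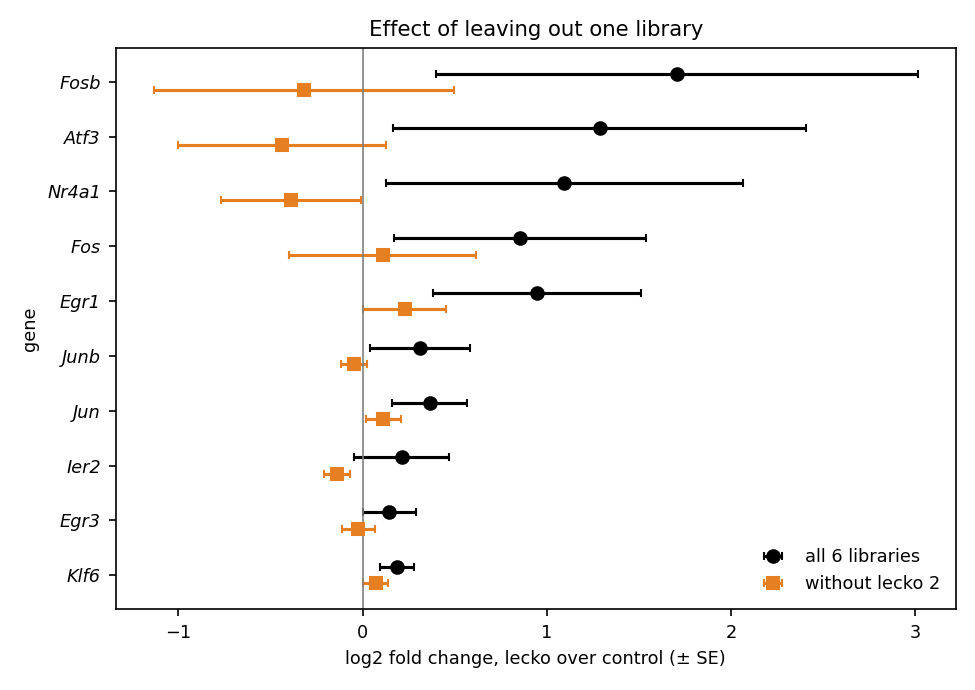
Log2 fold change of lecko over control with its SE from edgeR for each gene, with all 6 libraries (black circles) and without lecko 2 (orange squares). All 10 black circles are above 0, while 6 of the 10 orange squares are below 0.

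Related genes were taken from 8 lists by role, of which 102 genes were tested outside the members. By edgeR, 0 of the 102 passed the threshold, and 6 were under 0.05 by the unadjusted p, 3 in each direction, against 8.56% of all genes. DESeq2 called 1, against 0.215% of all genes, and limma-voom called 0, against 2 genes higher and 1 lower over all genes. Lecko 2 was the highest library for 47 of the 102, against 16.4% of all genes. It reached at least 2 times the next library for 4 of them, which are named because of this value: Arc, a synaptic immediate early gene, Fosl1, another Fos-family gene, the chemokine gene Cxcl1 and Ccn1, a matricellular gene of the immediate early wave. Ccn1 was at 79.7, 179 and 85.9 CPM in the lecko libraries and at 74.2, 81.1 and 60.7 CPM in the controls. Fosl1 was scarce, at 1.3, 10.1 and 0.851 CPM in the lecko libraries and at 3.86, 1.44 and 1.31 CPM in the controls. Arc and Cxcl1 were scarce too. Arc was at 2.7, 7.6 and 2.3 CPM in the lecko libraries and at 2.9, 2.9 and 2.3 CPM in the controls. Cxcl1 was at 1.0, 3.1 and 0.57 CPM in the lecko libraries and at 1.1, 0.52 and 1.4 CPM in the controls.

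Among other AP-1 members and partners, 3 of 10 genes were highest in lecko 2, and the median log2 fold change was 0.05. The 2 with the smallest p were Batf2, a dimerisation partner in immune cells, at 0.68 by edgeR (adjusted p = 0.67), and Atf4, the integrated stress response factor, at -0.09 (adjusted p = 0.69). Relatives in the EGR, NR4A, KLF and IER families were highest in lecko 2 for 8 of 9 genes tested. Over all 9, the ratio of lecko 2 to the highest other library had a median of 1.19, and the median log2 fold change was 0.13. Ier5l (0.39) and Ier3 (0.21) had the smallest p there, with adjusted p = 0.62 and 0.67 by edgeR. Egr4 had too few reads to be tested.

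Among the other transcripts known as rapidly induced, 14 of 27 tested genes were highest in lecko 2 and 7 reached 1.5 times the next library. Their median log2 fold change was 0.05, and 1 gene in each direction had an unadjusted p under 0.05. Ccl2, a monocyte-attracting chemokine gene, was at 3.10, 6.78 and 4.37 CPM in the lecko libraries and at 1.85, 1.84 and 2.80 CPM in the controls, without overlap. Its log2 fold change was 1.13 (SE 0.31, adjusted p = 0.47 by edgeR). Btg1, an antiproliferative gene, had -0.16 (adjusted p = 0.55 by edgeR).

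MAP kinase phosphatases and feedback regulators were highest in lecko 2 for 9 of 12 genes, 0 of them by 1.5 times, and had a median log2 fold change of 0.01, with Spred1 at 0.12 (adjusted p = 0.66) and Spry2 at 0.15 (adjusted p = 0.79) by edgeR. The mRNA decay factors had a median of 0.04 over 9 genes, of which 3 were highest in lecko 2. Zfp36l1, which destabilises AU-rich mRNAs, was at 0.22 (adjusted p = 0.55 by edgeR) and Cnot1, the scaffold of the deadenylase complex, at 0.05 (adjusted p = 0.80). Upstream kinases and transcription factors were highest in lecko 2 for 5 of 22 genes, with a median log2 fold change of 0.04 and Braf at 0.14 and Map2k2 at -0.13 (adjusted p = 0.56 and 0.58 by edgeR). The Egr co-repressors Nab1 and Nab2 had log2 fold changes of 0.08 and 0.17 (adjusted p = 0.78 and 0.80 by edgeR).

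Heat shock genes, which respond to protein damage, were highest in lecko 2 for 3 of 11 genes, and the largest ratio of lecko 2 to the next library was 1.11, for Dnaja1. Their median log2 fold change was -0.04. Hspb1, a small heat shock protein gene, was at 350, 362 and 333 CPM in the lecko libraries and at 436, 408 and 424 CPM in the controls, without overlap. Its log2 fold change was -0.28 (SE 0.06, adjusted p = 0.37 by edgeR), and DESeq2 called it (adjusted p = 0.028). Hspa1a, an inducible Hsp70 gene whose reads may be divided with its near-identical copy Hspa1b, was at 84.5, 100 and 76.6 CPM in the lecko libraries and at 102, 95.4 and 99.2 CPM in the controls, a log2 fold change of -0.18 (adjusted p = 0.62 by edgeR).

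**Figure D5:**
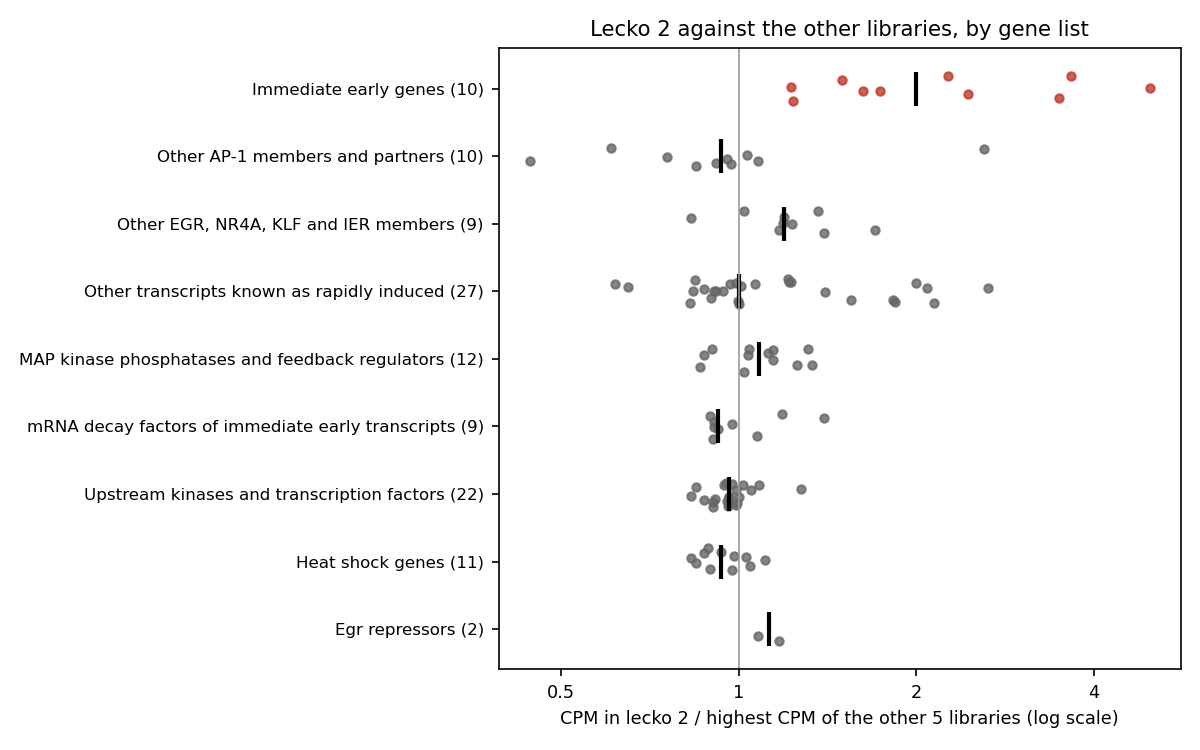
Ratio of the level in lecko 2 to the highest level of the other 5 libraries (log axis) for the 10 immediate early genes (red) and for the tested genes of 8 related lists (grey, number of genes in brackets), with the median of each list as a black bar. All red points lie above 1 and their median is 2.00, while heat shock genes lie at or under 1.11.

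By a rule on likeness, the genes outside the members whose log2 CPM most resembled the members' mean over the 6 libraries were Aggf1, Socs7, Btg2, Strn4 and Ccne2, with Pearson's r of 0.985, 0.985, 0.984, 0.979 and 0.977. Spearman's rho was 1, 0.943, 0.829, 0.771 and 0.829 for the same genes. These are descriptions over 6 libraries that include lecko 2, and 24 of 10777 candidate genes had r of at least 0.95. Btg2, an antiproliferative gene that is itself rapidly induced, was at 112, 210 and 114 CPM in the lecko libraries and at 114, 109 and 96.0 CPM in the controls. Aggf1 had a far smaller range, at 58.0, 62.1 and 58.3 CPM in the lecko libraries and at 59.2, 58.6 and 56.7 CPM in the controls.

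Cell type markers did not set lecko 2 apart in the way the members did. Its summed level ranked 3 to 6 of 6 for keratinocyte, fibroblast, lymphatic and blood endothelial, leukocyte, macrophage, neutrophil, skeletal muscle, hair shaft and chondrocyte markers, all of them detected except that 1 chondrocyte marker was at 0 in a library of each group. For 3 adipocyte markers it ranked 1, with lecko libraries at 167 to 241 CPM and controls at 221 to 238 CPM. Their part in the levels of the immediate early genes was not tested.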

How the data were processed

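The deposited table holds estimated counts per gene for 6 ear skin libraries, 1 column each; its values show this unit, since 9.6 to 10.5% of them were fractional. RSEM 1.3.1, Bowtie2 2.4.5 and HISAT2 2.2.1 are listed with the build GRCm38.p6, per the submitters' processing notes, without role or order. Annotation and strandedness of counting were not given in the sources used here. Groups came from the sample titles. Counts were rounded, filtered with filterByExpr (minimum count 10, minimum total 15; all 10 members passed) and scaled by TMM. edgeR 4.0.16 in R 4.3.3, with robust quasi-likelihood dispersions and no covariate, tested 14856 genes at a Benjamini-Hochberg threshold of 0.05. A prior count of 2 entered log2 CPM. DESeq2 1.42.0, limma-voom (limma 3.58.1), other scalings and filters, a replicate block, sex as a covariate and each library left out were alternatives. Coordinates are from RefSeq, and exon lengths, the union of the exons of all basic transcripts of a gene, from GENCODE. No pair of libraries in a group agreed within sampling noise. The scripts were tested on simulated data.

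The members and lists were chosen with earlier results of these data known. Named genes are the 10 members, up to 2 genes with the smallest p in each list (up to 4 where called), 5 by likeness (mean log2 CPM of at least 3, no unnamed or sex-linked gene) and Kdr; others are said to be chosen by value.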

Additional observations from a re-analysis of the deposited data

How the results depend on the processing

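No alternative made a call of an immediate early gene: 0 of the 10 members passed the threshold by edgeR, DESeq2 or limma-voom in the settings that gave a test. Their median log2 fold change, 0.61, lay between -0.034 and 0.85 when each library was left out in turn, and the median within-group SD, 0.53, between 0.23 and 0.61, both lowest without lecko 2. DESeq2 called 24 genes higher and 8 lower over all genes, against 2 and 1 by edgeR, and leaving out single libraries gave 2 to 36 higher and 1 to 5 lower.

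Single libraries left out turned the sign of 6 members, through lecko 2 alone. Their log2 fold changes ranged from -0.32 to 2.26 for Fosb, -0.046 to 0.47 for Junb, -0.023 to 0.25 for Egr3, -0.44 to 1.79 for Atf3, -0.14 to 0.36 for Ier2 and -0.39 to 1.52 for Nr4a1. Settings that combine lecko 2 left out with another choice were added after seeing the data. With DESeq2 these log2 fold changes were -0.32 for Fosb, -0.051 for Junb, -0.028 for Egr3, -0.45 for Atf3, -0.14 for Ier2 and -0.39 for Nr4a1 (55 genes higher and 15 lower, member median -0.039). With limma-voom they were -0.055 for Fosb, -0.047 for Junb, -0.023 for Egr3, -0.29 for Atf3, -0.14 for Ier2 and -0.32 for Nr4a1 (4 genes higher and 1 lower, member median -0.035). With sex as a covariate, which compares lecko 1 and lecko 3 in effect with control 1 alone, only effect sizes are given. They were -1.04 for Fosb, 0.0088 for Junb, 0.011 for Egr3, -1.12 for Atf3, -0.16 for Ier2 and -0.87 for Nr4a1 (member median -0.0014). Klf6, not among these 6, was at -0.012 in that setting. The cause of these shifts, beyond the library left out, was not tested.

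With a replicate block edgeR called 2 genes higher and 1 lower, and the member median was 0.46, with 1.10 for Fosb, 0.75 for Atf3 and 0.59 for Nr4a1. The labels do not say that a number marks a shared litter or day. The deviations of lecko and control libraries of the same number correlated at 0.34, -0.07 and 0.04 over genes. Pairs of unlike number lay between -0.28 and 0.23. These values cannot settle whether libraries of the same number share a litter or day, which was not tested. Each member had at least 214 reads in each library, which bounds the counting error but not the spread between samples.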

Other observations

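Outside the immediate early and related genes, 4 genes were at least 2 times as high in lecko 2 as in the next library, and they are named after their values were seen, except an unnamed gene model. Serpina3j, of the mouse serpin A3 cluster, was at 12.4, 61.9 and 5.96 CPM in lecko 1 to 3 and at 18.7, 19.7 and 20.8 CPM in controls 1 to 3. Serpin A3 genes of this cluster are similar in sequence, so this count depends on how reads were divided among them. Thrsp, a lipogenic gene, was at 13.8, 35.7 and 13.6 CPM in the lecko libraries and at 14.5, 17.6 and 9.14 CPM in the controls. Lipg, which encodes endothelial lipase, was at 4.80, 11.3 and 5.28 CPM in the lecko libraries and at 4.67, 4.37 and 5.31 CPM in the controls.

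Of the CCN family genes of the rapidly induced list, Ccn1 was highest in lecko 2. Ccn2 was at 1227, 758 and 1122 CPM in lecko 1 to 3 and at 809, 1183 and 555 CPM in controls 1 to 3, so lecko 2 was the lowest of the lecko libraries. The log2 fold changes by edgeR were 0.67 for Ccn1 and 0.29 for Ccn2 (adjusted p = 0.67 and 0.83), and Ccn2 was chosen after its values were seen.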
